A study of Mus musculus with 48 samples.

Results

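Livers collected at 20 h were set against livers collected 4 h earlier, at 16 h, in 16 of the 48 libraries of a liver time course. Membership followed the collection time in the labels and nothing measured: 8 libraries at 20 h (4 KO and 4 WT) and 8 at 16 h (3 KO and 5 WT). KO mice were C57BL/6 animals in which both Bmal1 copies carried loxP sites and the aP2 promoter drove Cre recombinase. WT mice were their littermate controls, and the labels do not say whether these carried the floxed alleles. All mice had spent 36 h in constant darkness and were killed in darkness. The aP2 promoter is used to delete genes in adipocytes and is also active in macrophages, so hepatocytes, which make most of the RNA in liver, are not its main target. The series text gives 4- to 6-month-old males and 4 mice for each genotype and time, whereas the labels give 3 KO and 5 WT libraries at 16 h. In all 16 libraries Xist, a transcript of the inactive X chromosome, had between 3029 and 10955 counts, and the Y-linked genes had 0 counts.

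In the mammalian clock BMAL1 pairs with CLOCK or NPAS2 and binds E-boxes in the promoters of the Period, Cryptochrome and REV-ERB genes, whose products feed back on this pair. REV-ERB proteins repress and ROR proteins activate Arntl, the gene that encodes BMAL1, and the PAR bZIP factors DBP, TEF and HLF act through D-boxes. In liver this loop is known to time the synthesis of cholesterol, the handling of foreign compounds and the use of glucose and fat. The comparison asks which transcripts differ between 2 late points of the cycle in liver whatever the genotype, and whether the step differs between KO and WT.

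In all, 5 of 13121 tested genes passed an adjusted p of 0.05 for 20 h against 16 h with genotype as covariate, which is 0.0381% (edgeR's quasi-likelihood test, Benjamini-Hochberg adjustment over all genes tested). The clock repressor Per3 and the cytochrome P450 gene Cyp2a5 were lower at 20 h. The manganese exporter gene Slc30a10 and the predicted genes Gm8730 and Gm9625 were higher. At an unadjusted p under 0.05 there were 711 genes, and the median log2 change over all genes was -0.0060, with 51.1% of genes below 0. Changes are given on the log2 scale as 20 h minus 16 h with their standard error (SE), and levels in CPM, read counts scaled to library size, which do not correct for gene length.

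RefSeq holds promoter windows, 250 bases before and 50 after the annotated start in the build GRCm38.p6, for 3 of the 5 called genes and for 9128 of the 13097 symbols tested. They are shown for these genes and for Tef, the clock output gene with the lowest p, because most of the values below concern them. Capitals mark matches, on either strand, to the E-box CACGTG, the D-box TTANGTAA, the ROR element ANTNGGTCA, the heat shock element GAANNTTC or the sterol element TCACNCCAC. No match overlapped another in these windows.
Per3, chr4:151044616-151044915, minus strand: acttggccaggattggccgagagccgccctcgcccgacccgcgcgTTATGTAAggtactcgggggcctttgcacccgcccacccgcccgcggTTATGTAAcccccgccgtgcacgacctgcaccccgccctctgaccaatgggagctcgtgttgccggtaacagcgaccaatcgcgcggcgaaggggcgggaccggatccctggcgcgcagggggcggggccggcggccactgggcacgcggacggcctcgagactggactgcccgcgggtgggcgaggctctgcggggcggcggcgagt
Cyp2a5, chr7:26835089-26835388, plus strand: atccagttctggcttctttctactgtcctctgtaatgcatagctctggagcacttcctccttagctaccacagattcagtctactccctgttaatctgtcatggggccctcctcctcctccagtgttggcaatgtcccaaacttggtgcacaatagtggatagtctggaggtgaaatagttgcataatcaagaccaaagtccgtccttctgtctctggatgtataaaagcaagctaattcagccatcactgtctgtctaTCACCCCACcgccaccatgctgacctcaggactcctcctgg
Slc30a10, chr1:185454598-185454897, plus strand: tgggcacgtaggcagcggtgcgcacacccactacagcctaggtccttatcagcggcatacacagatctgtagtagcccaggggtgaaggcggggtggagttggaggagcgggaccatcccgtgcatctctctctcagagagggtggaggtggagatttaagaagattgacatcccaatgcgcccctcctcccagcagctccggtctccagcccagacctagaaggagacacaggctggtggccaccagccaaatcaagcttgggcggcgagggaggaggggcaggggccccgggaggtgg
Tef, chr15:81802423-81802722, plus strand: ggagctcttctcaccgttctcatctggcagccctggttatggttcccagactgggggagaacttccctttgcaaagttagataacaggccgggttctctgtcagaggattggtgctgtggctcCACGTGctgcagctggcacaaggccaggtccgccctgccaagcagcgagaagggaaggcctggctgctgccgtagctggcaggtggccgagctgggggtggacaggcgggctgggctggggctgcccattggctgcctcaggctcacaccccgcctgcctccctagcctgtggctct
The Per3 window held 2 D-boxes, a motif found in 2.32% of all 32851 windows. The Tef window held 1 E-box (7.15% of all windows), as did the window of its other annotated start. Cyp2a5 had a sterol element match (1.24% of all windows), which lies within the transcribed part of its window, and Slc30a10 had no match to any of the 5 motifs. The ROR element was in 2.24% and the heat shock element in 7.86% of all windows. These matches describe letters only.

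The libraries differed in ways that the groups do not explain. Total counts without albumin lay between 12841969 and 13009797, a narrow range that says nothing of the depth before any equalising step. The first principal component of the 16 libraries held 41.7% of their variance and set apart KO replicate 3 and WT replicate 2 of both 20 h and 16 h, 1 library in each of the 4 groups. Across 11853 genes, the difference between these 4 libraries and the other 12 went with the GC content of the transcript (Spearman's rho = -0.749, across genes, which are not independent replicates). In the lowest of 4 GC classes these libraries were higher by a median of 0.616 on the log2 scale, and in the highest class the median difference was -0.589. The log2 change of 20 h against 16 h had medians of -0.027 and -0.0182 in the same classes. KO replicate 2 of 16 h also stood apart with 310 CPM of Ddit4, KO replicate 1 of 20 h with 2319 CPM of Saa1, and WT replicate 5 of 16 h with lymphocyte markers summing to 1673 CPM. Hepatocyte markers summed to 49050 to 67890 CPM at 20 h and 50100 to 77280 CPM at 16 h, while the labels call the cell type adipocyte. Of 9 adipocyte markers 5 were too low to test, and the other 4 summed to 189.3 to 1295 CPM at 20 h (median 1015) and 184.9 to 1636 CPM at 16 h (median 931). Most of this sum was Car3, carbonic anhydrase 3, with a mean of 718 CPM at 20 h and 739 CPM at 16 h. The gene of aP2 itself, Fabp4, averaged 9.95 CPM at 20 h and 9.50 CPM at 16 h.

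Per3 (mm9 chr4:150377761-150418774), a Period gene whose product belongs to the repressing arm of the clock, had 6.01, 11.7, 6.78 and 8.28 CPM in KO livers and 10.2, 14.5, 11.03 and 15.04 CPM in WT livers at 20 h. At 16 h it had 32.3, 29.0 and 27.8 CPM in KO livers and 47.1, 29.8, 38.8, 22.1 and 37.65 CPM in WT livers. Every library at 20 h was below every library at 16 h. The log2 change was -1.64 (SE 0.18, adjusted p = 0.00023, n = 8 against 8). It was -1.86 (SE 0.27, adjusted p = 0.0141) within KO and -1.47 (SE 0.25, adjusted p = 0.0535) within WT. When each library was left out in turn Per3 stayed called in all 16 fits, with log2 changes from -1.74 to -1.57.

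Cyp2a5 (mm9 chr7:27620324-27628567) encodes a liver cytochrome P450 that oxidises coumarin and nicotine. At 20 h it had 738, 1436, 1355 and 1234 CPM in KO livers and 1094, 1350, 1223 and 866 CPM in WT livers. Its values at 16 h were 2054, 2615 and 3604 CPM in KO livers and 2916, 2331, 2708, 3726 and 2809 CPM in WT livers. The groups did not overlap, and the log2 change was -1.29 (SE 0.18, adjusted p = 0.0029), with a call in all 16 leave-one-out fits (-1.39 to -1.21). Its near-identical neighbour Cyp2a4, a steroid hydroxylase gene, averaged 410 CPM at 20 h and 969 CPM at 16 h, a log2 change of -1.24 (SE 0.26, adjusted p = 0.0956). How reads that match both copies were counted is not stated, so counts may be split between them.

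Slc30a10 (mm9 chr1:187278727-187292641), which exports manganese from cells, had 106, 106, 109 and 104 CPM in KO livers and 107, 88.3, 113 and 78.1 CPM in WT livers at 20 h. The 16 h values were 63.1, 38.8 and 87.1 CPM in KO livers and 40.8, 47.6, 56.0, 36.7 and 50.1 CPM in WT livers. KO replicate 3 at 16 h lay above WT replicate 4 at 20 h, so the groups overlapped by 1 library on each side. The log2 change was 0.93 (SE 0.16, adjusted p = 0.0449). This call lay close to the threshold. It held without KO replicate 2 or KO replicate 3 of 16 h, and was lost without any one of the other 14 libraries. In those 14 fits the adjusted p lay between 0.0511 and 0.137. Over all 16 fits the log2 change lay between 0.84 and 1.06.

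**Figure D1:**
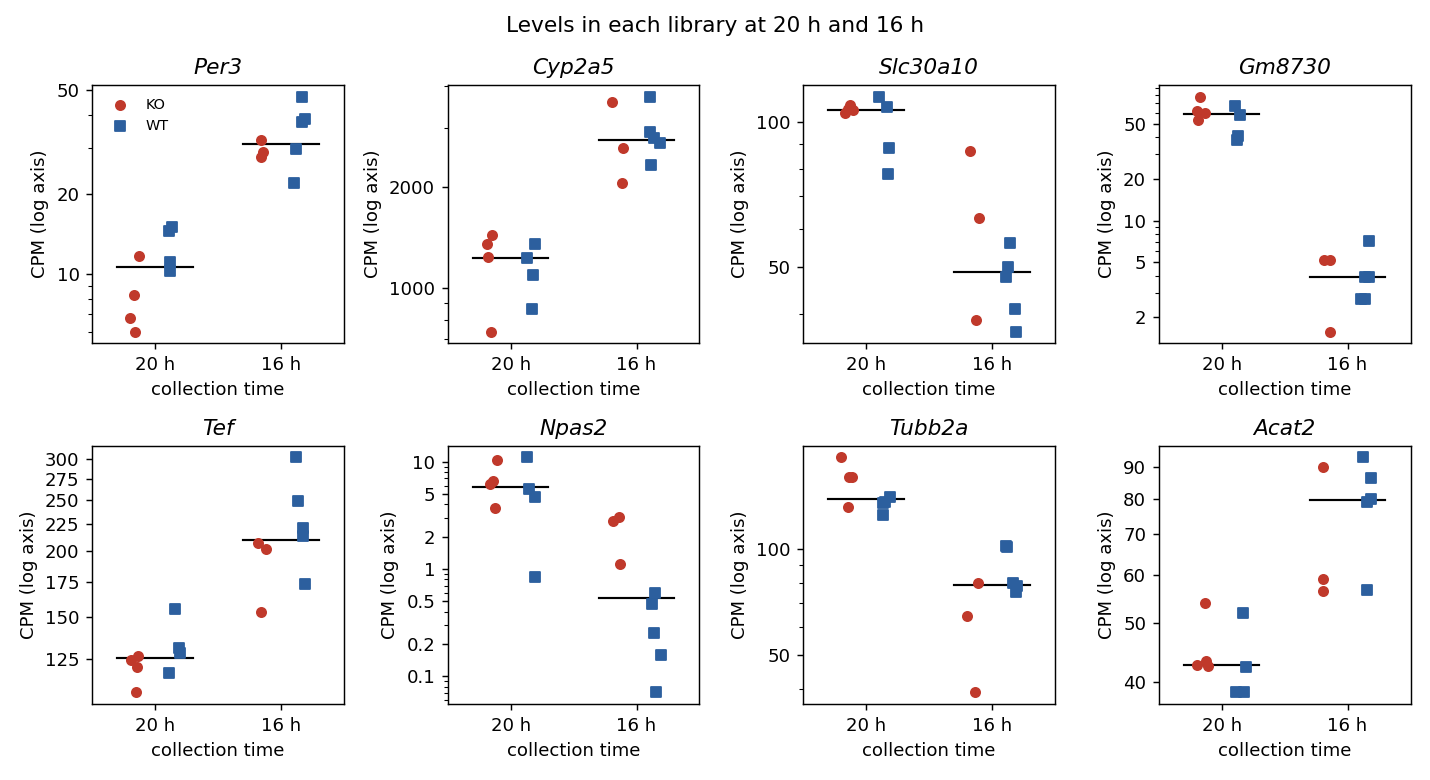
CPM in each library (log axis) at 20 h and 16 h for the 3 called genes with a known product, Gm8730 and 4 genes just short of the threshold. Circles are KO, squares are WT and the bar is the median of the 8 libraries. Per3, Cyp2a5, Gm8730, Tubb2a and Acat2 do not overlap between the times, and Tef overlaps by 1 library of each time.

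The largest changes among the called genes belonged to Gm8730 (mm9 chr8:105388679-105389777) and Gm9625 (mm9 chr13:67911106-67912204), which GENCODE M21 lists as processed pseudogenes. Aligned to the Rplp0 transcript, which encodes a ribosomal stalk protein, Gm8730 was identical at 98.7% and Gm9625 at 97.4% of positions, and within the 951 coding bases they differed at 12 and 24 bases. Bases 137 to 196 of the Rplp0 coding sequence show how few positions tell the copies apart. They were picked as a stretch of that length where both copies differ most from Rplp0. Capitals in the copies mark bases that differ from Rplp0, and capitals in Rplp0 mark positions where either copy differs.
Gm8730: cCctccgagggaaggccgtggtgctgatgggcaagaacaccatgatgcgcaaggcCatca
Gm9625: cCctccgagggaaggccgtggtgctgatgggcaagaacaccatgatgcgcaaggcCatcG
Rplp0: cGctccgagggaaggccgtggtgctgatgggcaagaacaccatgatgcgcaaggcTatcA

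Gm8730 had 78.2, 53.3, 62.1 and 59.7 CPM in KO livers and 38.1, 40.6, 58.1 and 67.1 CPM in WT livers at 20 h. The 16 h values were 5.24, 5.22 and 1.58 CPM in KO livers and 3.92, 2.72, 3.94, 7.10 and 2.73 CPM in WT livers. The log2 change was 3.78 (SE 0.27, adjusted p = 2.97e-07), and for Gm9625 it was 3.93 (SE 0.26, adjusted p = 2.55e-07), with a median of 12.9 CPM at 20 h and 0.681 CPM at 16 h. Rplp0 itself had a median of 347 CPM at 20 h (244 to 427) and 476 CPM at 16 h (175 to 742), a log2 change of -0.43 (SE 0.21, adjusted p = 0.964). These 3 genes can share reads, so their counts are uncertain.

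Over all 48 libraries, Gm8730 took values in 2 separate ranges, from 1.55 to 7.22 CPM in 27 libraries and from 39.1 to 150.7 CPM in 21 libraries. Both ranges occurred in 4 of the 6 times: 4 low and 4 high libraries at 0 h, 6 and 2 at 4 h, 3 and 5 at 8 h, and 6 and 2 at 12 h. At 16 h all 8 libraries were low and at 20 h all 8 were high. Gm9625 split the same way, with at most 1.51 CPM in the low libraries and at least 6.79 CPM in the high ones. Among the libraries of 0 to 12 h, the median of Rplp0 was 347 CPM in the 13 libraries high in Gm8730 and 484 CPM in the 19 low ones. Between 16 and 20 h, whatever separates the 2 ranges cannot be told apart from the collection time. With the log2 CPM of Gm8730 as a covariate in a model of all 48 libraries, an alternative chosen after seeing the data, 0 genes were called (edgeR; 662 at an unadjusted p under 0.05). With a mean for each group in the model, the slope of this covariate came from differences within groups. Both ranges occurred within a time only at 0 to 12 h. The adjusted step holds only if the same slope applies between 16 and 20 h, which was not tested. The same model without the covariate called 50 genes. There Per3 had a log2 change of -1.67 (SE 0.25, adjusted p = 0.00026), Cyp2a5 -1.29 (SE 0.22) and Slc30a10 0.91 (SE 0.16), both with an adjusted p of 0.0032. With the covariate Per3 had a log2 change of -1.51 (SE 0.30, adjusted p = 0.0955), Cyp2a5 -1.17 (SE 0.27) and Slc30a10 0.86 (SE 0.19), both with an adjusted p of 0.189. Which property of the libraries sets the range of Gm8730 was not tested.

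**Figure D2:**
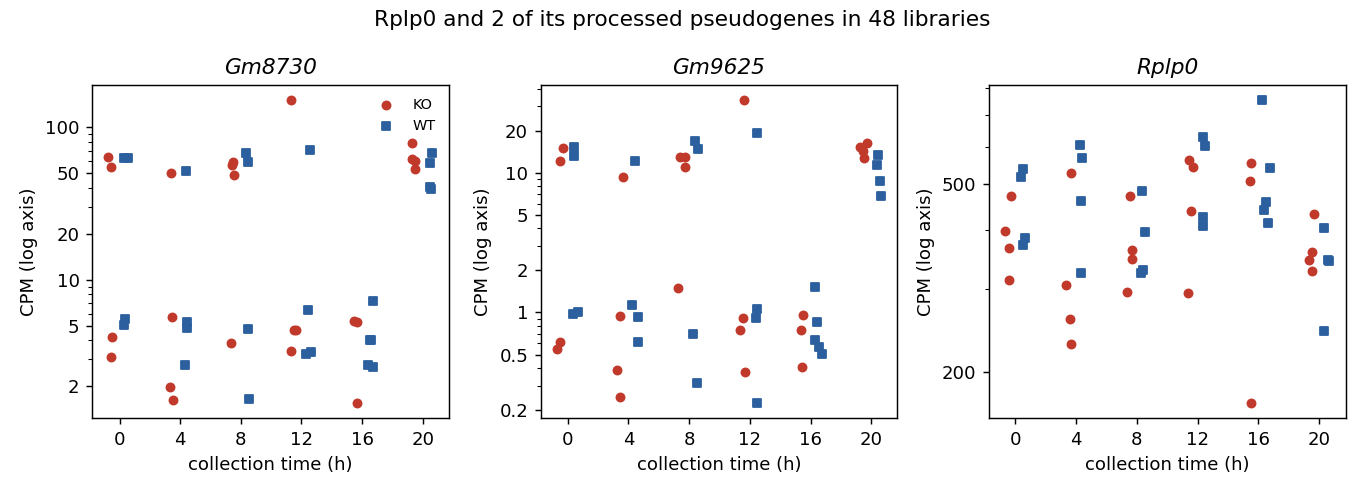
CPM (log axis) of Gm8730, Gm9625 and Rplp0 against collection time in 48 libraries, circles KO and squares WT. The pseudogenes fall into a low and a high range at 0 to 12 h, are all low at 16 h and all high at 20 h.

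The count of calls moved with the model. Leaving out the 4 libraries set apart by the first principal component gave 14 calls (8 higher and 6 lower). A fit with 1 surrogate variable gave 50 (25 higher and 25 lower). Both alternatives were chosen after seeing the data. A model of 12 group means over all 48 libraries gave 50 calls (22 higher and 28 lower), DESeq2 gave 55 (27 higher and 28 lower), and the fits without KO replicate 2 or KO replicate 3 of 16 h gave 10 each. These fits share most or all of the 16 libraries and are not independent of each other. In all 4 of them (4 libraries left out, surrogate variable, 48 libraries, DESeq2) 9 genes were called: Per3, Cyp2a5, Slc30a10, Tef, Npas2, Nr1d2, Ethe1, Dtx4 and Ndrg1. Ethe1, a mitochondrial enzyme of sulfide oxidation, had 28.9 to 74.2 CPM at 20 h and 21.8 to 34.75 CPM at 16 h (log2 change 1.08, SE 0.20, adjusted p = 0.0585 in the 16 libraries). Dtx4, a ubiquitin ligase gene of the Deltex family, had 22.7 to 36.9 CPM at 20 h and 6.59 to 27.0 CPM at 16 h (0.97, SE 0.19, adjusted p = 0.0664). Ndrg1, a stress-responsive gene, had 20.45 to 43.4 CPM at 20 h and 12.3 to 28.1 CPM at 16 h (0.98, SE 0.19, adjusted p = 0.0664). The 2 times overlapped for each of these 3 genes. Gm8730 and Gm9625 were called in 3 of the 4 and did not pass over 48 libraries.

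Among the repressing arm of the clock, 1 of 13 tested genes, Per3, was called lower and none higher, against 0.0381% of all genes. The median log2 change of the list was -0.28, with 10 of 13 members below 0, against 51.1% of all genes. Per2, which like Per3 is switched on through E-boxes, had 16.9 to 39.6 CPM at 20 h (median 28.0) and 38.6 to 90.7 CPM at 16 h (median 54.7). Only the highest library at 20 h reached into the range of 16 h, and its log2 change was -1.12 (SE 0.23, adjusted p = 0.0895). Nr1d2, which encodes REV-ERB beta, had a log2 change of -1.09 (SE 0.27, adjusted p = 0.218), with medians of 31.2 CPM at 20 h and 78.8 CPM at 16 h. WT replicate 2 of 20 h, one of the 4 libraries above, held 80.4 CPM of Nr1d2 against 28.9 to 34.2 CPM in the other 3 WT libraries of that time, and without it the gene passed the test. Gm129, a repressor of the BMAL1 complex also called Ciart, had a log2 change of -1.15 (SE 0.47, adjusted p = 0.833). Nr1d1 and Cry1 had log2 changes of -0.28 (SE 0.56) and 0.064 (SE 0.15), and neither passed.

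Of the activating genes, 0 of 5 tested were called (edgeR), against 0.0381% of all genes. Their median log2 change was 0.21. Within KO the median was -0.050 and within WT 0.41, and this difference was not tested. Npas2, the partner of BMAL1 that can stand in for CLOCK, had the largest change of the list. It had 10.4, 6.60, 3.66 and 6.15 CPM in KO livers and 10.97, 0.839, 5.56 and 4.66 CPM in WT livers at 20 h. At 16 h it had 1.11, 3.03 and 2.83 CPM in KO livers and 0.0704 to 0.5945 CPM in the 5 WT livers. All 20 h libraries except WT replicate 2 were above all 16 h libraries. The log2 change was 2.78 (SE 0.54, adjusted p = 0.0664), and without WT replicate 2 of 20 h the adjusted p was 0.0428.

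Arntl, the gene targeted in KO mice, had 28.95, 36.95, 32.5 and 29.7 CPM in KO livers and 32.3, 29.3, 37.1 and 29.2 CPM in WT livers at 20 h. Its values at 16 h were 19.1, 34.97 and 24.0 CPM in KO livers and 13.5, 21.6, 14.9, 14.9 and 15.2 CPM in WT livers. It was thus present in every KO liver and overlapped WT at 20 h, and a count over the whole gene does not check the deleted part. The log2 change over both genotypes was 0.69 (SE 0.16, adjusted p = 0.21). Clock and Rora had log2 changes of 0.21 (SE 0.30) and -0.11 (SE 0.25), and neither passed.

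**Figure D3:**
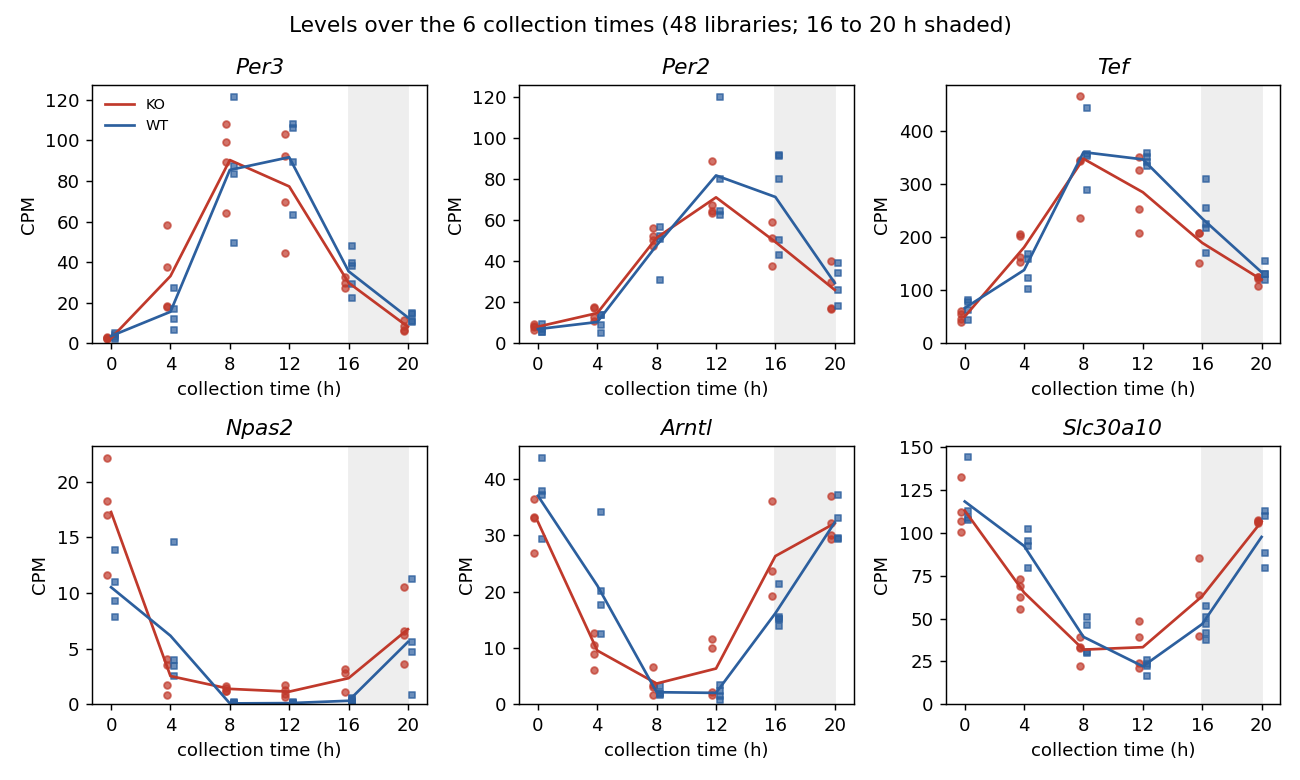
CPM against collection time for 3 genes with a lower mean at 20 h than at 16 h (Per3, Per2, Tef) and 3 with a higher mean (Npas2, Arntl, Slc30a10), in 48 libraries. Points are libraries, lines join group means of KO (circles) and WT (squares), and the shaded band marks 16 to 20 h. Per3 averaged 10.52 CPM at 20 h and 33.5 CPM at 16 h, on the way down from 87.9 CPM at 8 h.

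Of 20 clock output genes, 0 were called, against 0.0381% of all genes. Their median log2 change was -0.54, with 13 below 0, against 51.1% of all genes. Tef, a PAR bZIP transcription factor, came closest. It had 124, 121, 126 and 108 CPM in KO livers and 128, 155, 131 and 117 CPM in WT livers at 20 h. The 16 h values were 207, 202 and 154 CPM in KO livers and 302, 173, 249, 214 and 221 CPM in WT livers. Only WT replicate 2 of 20 h was above the lowest library of 16 h, KO replicate 3. Both are among the 4 libraries set apart by the first principal component. The log2 change was -0.74 (SE 0.13, adjusted p = 0.0541), and without KO replicate 3 or WT replicate 2 of 16 h it passed the test. Its relative Dbp was low at both times, with a median of 4.81 CPM at 20 h and 12.6 CPM at 16 h. Its log2 change was -1.05 (SE 0.30, adjusted p = 0.43). The deubiquitinase gene Usp2 and the lipin gene Lpin1, a phosphatidate phosphatase, had log2 changes of -1.20 (SE 0.40, adjusted p = 0.632) and -1.79 (SE 0.62, adjusted p = 0.674). Ppp1r3c, a glycogen-targeting phosphatase subunit, had one of 0.91 (SE 0.29, adjusted p = 0.607). Rgs16, which limits G protein signalling, had 19.2 to 106 CPM at 20 h and 52.7 to 346 CPM at 16 h (-1.65, SE 0.43, adjusted p = 0.313). The tetraspanin gene Tspan4 had 45.1 to 65.7 CPM at 20 h and 65.1 to 110 CPM at 16 h, so that a single library of each time overlapped (-0.61, SE 0.14, adjusted p = 0.20). Ccrn4l, the deadenylase gene also called nocturnin, had a log2 change of -1.31 (SE 0.36, adjusted p = 0.369), and Hlf, the third PAR bZIP gene, one of -0.27 (SE 0.14, adjusted p = 0.965).

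In time order, the 20 h means of Per3, Per2 and Tef were below their 16 h means, and those of Npas2, Arntl and Slc30a10 were above. Over 8 libraries at each time, scaled over all 48, Per3 averaged 3.14 CPM at 0 h, 24.4 at 4 h, 87.9 at 8 h, 84.6 at 12 h, 33.5 at 16 h and 10.52 at 20 h. Cyp2a5 averaged 490 CPM at 0 h, 1209 at 4 h, 2449 at 8 h, 3116 at 12 h, 2874 at 16 h and 1169 at 20 h. Slc30a10 ran the other way, with 116, 78.8, 35.6, 27.7, 52.9 and 102 CPM at the same times. For these 3 genes the mean at 20 h lay between the means at 16 h and at 0 h.

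The change was also set against the step from 4 to 8 h, which lies 12 h earlier and shares no library with it. There, 154 of 12811 genes were called, or 1.2% (61 higher and 93 lower at 8 h). Of the 5 genes called between 20 h and 16 h, 3 were also called between 8 h and 4 h, Per3, Cyp2a5 and Slc30a10, each in the opposite direction. Their log2 changes of 8 h against 4 h were 1.94, 1.03 and -1.13. In a model of all 48 libraries the 2 steps differed for 384 of 13646 genes, or 2.81%, 222 with a more positive log2 change from 16 to 20 h and 162 with a more negative one. For Per3 the difference between the steps was -3.62 (SE 0.35, adjusted p = 3.61e-09). The lowest p-values also included Per2 (-3.09, SE 0.30), Tef (-1.90, SE 0.20), Slc30a10 (2.04) and Tubb2a (2.58, SE 0.27), and Npas2 differed by 6.39 (SE 0.64, adjusted p = 7.1e-09).

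By list, the steps differed for 13 of 20 clock output genes, 5 of 13 repressors and 3 of 5 activators, against 2.81% of all genes. Among the output genes, the kinase gene Wee1 differed by -3.57 (SE 0.52) and Usp2 by -3.70 (SE 0.48). The uridine phosphorylase gene Upp2 differed by -3.13 (SE 0.47). For 6 of 24 cholesterol genes the steps differed too, among them Acat2, Insig1, Stard4 and Lss, each of these 4 with a more negative log2 change from 16 to 20 h. Gm8730 did not differ between the steps at the threshold (adjusted p = 0.324).

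**Figure D4:**
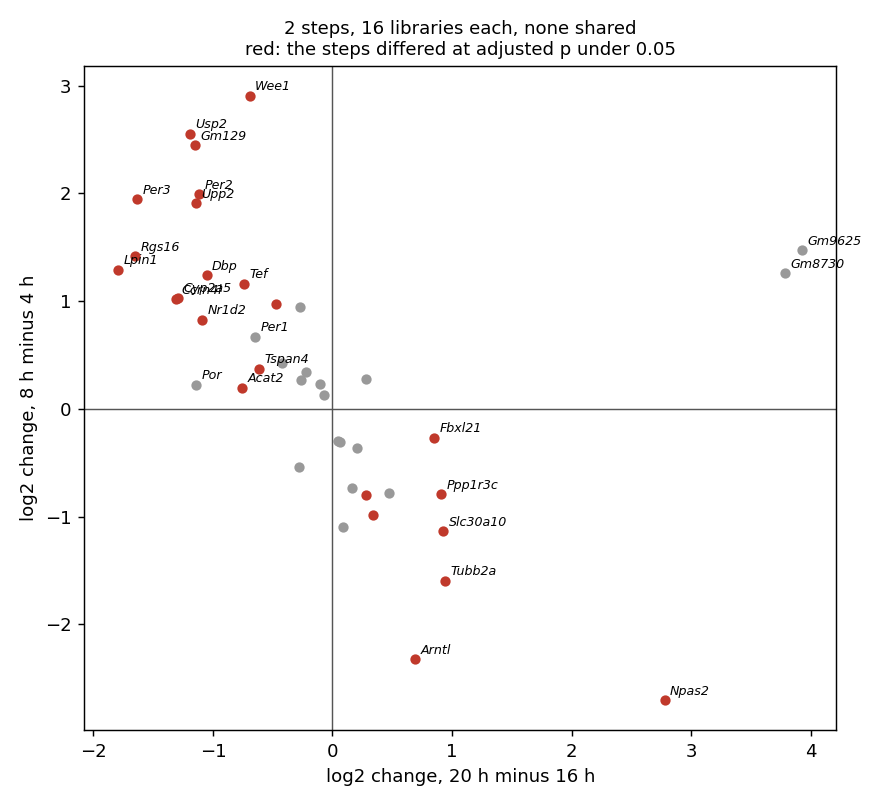
Log2 change of 20 h minus 16 h (x) against that of 8 h minus 4 h (y) for 42 clock, called and other named genes. In red, 24 genes whose steps differed at an adjusted p under 0.05, all of them with opposite signs. Picking genes for a large difference between the steps favours opposite signs, so the signs are a description and not a separate result. Per3 lies at -1.64 and 1.94 and Npas2 at 2.78 and -2.70.

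Within genotypes, 3 genes were called in KO (0.0229% of 13121; 2 higher and 1 lower) and 3 in WT (0.0229%; 3 higher). Both lists held Gm8730 and Gm9625, and the other call was Per3 in KO and Npas2 in WT. For Npas2 the log2 change was 1.53 (SE 0.64, adjusted p = 0.955) in KO and 4.14 (SE 0.65, adjusted p = 0.0337) in WT. At 16 h its 3 KO libraries were all above the 5 WT libraries. The difference of the 2 steps, KO minus WT, was -2.61 (SE 0.90), which did not pass (unadjusted p = 0.00972, adjusted p = 0.973). Arntl had log2 changes of 0.30 (SE 0.22) in KO and 0.998 (SE 0.20) in WT, a difference of -0.70 (SE 0.30, adjusted p = 0.973). Tubb2a had 1.37 (SE 0.23) in KO and 0.61 (SE 0.19) in WT, a difference of 0.75 (SE 0.30, adjusted p = 0.973). No gene passed the test of the difference between genotypes (0%, edgeR; 316 at an unadjusted p under 0.05), and DESeq2 called 0 as well (435 at an unadjusted p under 0.05). The count in WT was 7 without KO replicate 3 of 16 h and 5 without KO replicate 1 of 20 h.

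Genes of cholesterol synthesis and uptake lay on one side as a list. All 24 tested members had a log2 change below 0, against 51.1% of all genes. Of these 24, 0 were called (0.0381% of all genes), and their median was -0.80 (-0.0060 over all genes). The direction of the median held under both other scalings (-0.82 with RLE scaling and -0.73 without scaling factors). Acat2, a cytosolic thiolase at the head of the pathway, had 42.5, 54.0, 42.7 and 43.4 CPM in KO livers and 38.5, 42.4, 51.9 and 38.5 CPM in WT livers at 20 h. The 16 h values were 59.05, 56.4 and 90.1 CPM in KO livers and 93.45, 80.0, 78.9, 56.6 and 86.55 CPM in WT livers. The times did not overlap, and the log2 change was -0.76 (SE 0.15, adjusted p = 0.0664). The farnesyl diphosphate synthase gene Fdps averaged 59.0 CPM at 20 h and 148.7 CPM at 16 h (-1.34, SE 0.33, adjusted p = 0.218). The list's median was -0.58 within KO and -1.003 within WT, and this difference was not tested.

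Neighbouring metabolic lists had smaller medians. Over all genes 0.0381% were called and 51.1% had a log2 change below 0. Of 25 genes of fatty acid synthesis and triglyceride storage 0 were called, with a median of -0.27. Thrsp, a lipogenic protein of liver, had the lowest p (-1.52, SE 0.38, adjusted p = 0.243), with a median of 98.6 CPM at 20 h and 255 CPM at 16 h. Acss2, which makes acetyl-CoA from acetate, had a log2 change of -0.84 (SE 0.27, adjusted p = 0.607). Of 19 insulin and fasting genes 18 were below 0 and 0 were called (median -0.31). Their median was -0.51 within KO and -0.038 within WT, a difference that was not tested. Foxo3, a forkhead factor held out of the nucleus by insulin signalling, had a log2 change of -0.74 (SE 0.20, adjusted p = 0.33). The stress gene Ddit4 had the most negative value, -2.55 (SE 0.81, adjusted p = 0.607), and KO replicate 2 of 16 h alone held 310 CPM while the median was 7.22 CPM at 20 h and 18.3 CPM at 16 h. In the glucose list 0 of 17 were called, and Pfkfb3, which makes the glycolytic activator fructose 2,6-bisphosphate, had a log2 change of -0.85 (SE 0.26, adjusted p = 0.588). Of 31 xenobiotic genes, Cyp2a5 was called lower, none was called higher, and 26 were below 0 (median -0.17). PPARalpha targets were balanced over both genotypes, with 14 of 28 below 0, a median of 0.0083 (-0.0074 with RLE scaling) and 0 calls. Within KO their median was 0.20 and within WT -0.16, a difference that was not tested.

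**Figure D5:**
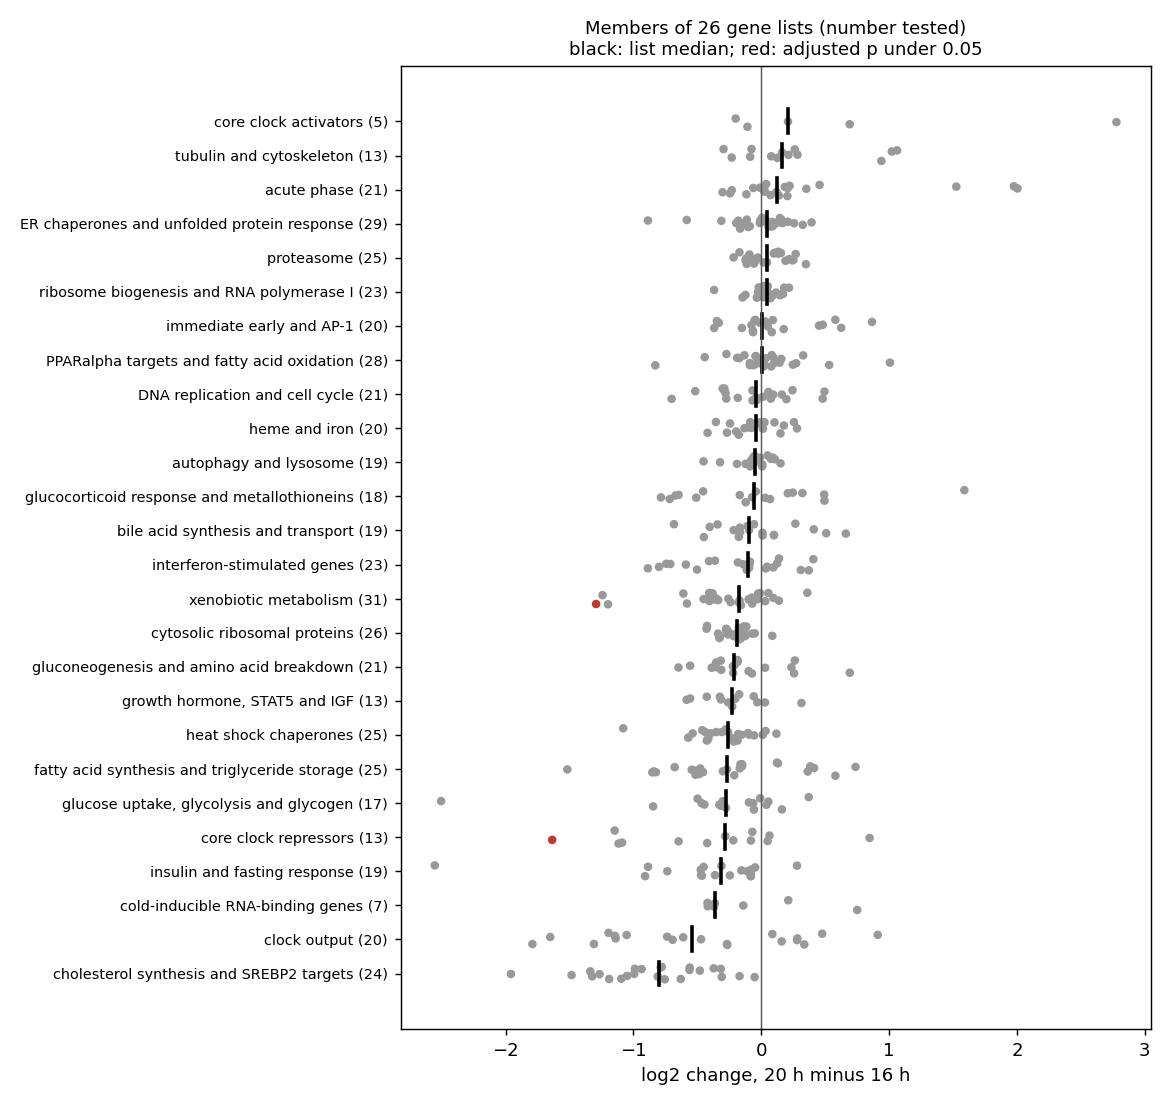
Log2 change of 20 h minus 16 h for the tested members of 26 gene lists, with the number tested in brackets and the list median as a black bar. Red points are the 2 listed genes called (Per3 and Cyp2a5), and all 24 cholesterol genes lie left of 0.

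Among tubulin and actin genes 9 of 13 had a log2 change above 0 (median 0.16), and 0 were called. Of all genes 0.0381% were called and 51.1% were below 0. The list's median was 0.47 within KO and -0.072 within WT, a difference that was not tested. Tubb2a, a beta tubulin, had 160, 131, 181 and 160 CPM in KO livers and 134, 135.5, 140 and 124 CPM in WT livers at 20 h. At 16 h it had 79.9, 39.2 and 64.4 CPM in KO livers and 75.2, 80.1, 78.2, 101 and 102 CPM in WT livers. The times did not overlap, and the log2 change was 0.94 (SE 0.17, adjusted p = 0.0585). Actg1, cytoplasmic gamma actin, had a median of 75.8 CPM at 20 h and 33.2 CPM at 16 h (1.06, SE 0.24, adjusted p = 0.179), with KO replicate 3 of 20 h at 20.04 CPM below all of 16 h. Tubulin genes are a family of similar copies, and reads may be split between them.

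The remaining lists held 0 calls each, where 0.0381% of all genes were called and 51.1% of all genes were below 0. Heat shock chaperones had 22 of 25 members below 0 (median -0.26), with Dnajb1, a co-chaperone of HSP70, at -0.57 (SE 0.20, adjusted p = 0.674). Cytosolic ribosomal proteins had 25 of 26 below 0 (median -0.19), with Rpl3 at -0.42 (SE 0.13, adjusted p = 0.582). The median of growth hormone and IGF genes was -0.23, of gluconeogenesis and amino acid genes -0.21, of cold-inducible genes -0.36, of bile acid genes -0.096 and of interferon-stimulated genes -0.10. Acute phase genes had a median of 0.12, and the high value of Saa1, a log2 change of 1.98 (SE 0.83, adjusted p = 0.854), came with 2319 CPM in KO replicate 1 of 20 h against a median of 76.9 CPM at that time. Medians between -0.057 and 0.045 were found for the lists of glucocorticoid response, autophagy, heme and iron, cell cycle, immediate early genes, ribosome biogenesis, the proteasome and ER chaperones. Of these, the medians of glucocorticoid response, autophagy, heme and iron and cell cycle genes were above 0 without scaling factors, and that of immediate early genes was below 0 with RLE scaling.

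Markers of other liver cells were read in the same way, beside 0.0381% of all genes called and 51.1% of all genes below 0. All 14 macrophage and Kupffer markers had log2 changes below 0 (median -0.43, 0 called), and their summed level was 321.7 to 710.3 CPM at 20 h (median 383) and 188.6 to 934.6 CPM at 16 h (median 490). Marco, a scavenger receptor of Kupffer cells, had a median of 2.63 CPM at 20 h and 17.2 CPM at 16 h (-2.38, SE 0.87, adjusted p = 0.707). In bulk tissue fewer cells of a type and less RNA per cell cannot be told apart. Lymphocyte markers had 12 of 13 below 0 (median -0.42), with sums of 28.8 to 43.8 CPM at 20 h and 16.7 to 1673 CPM at 16 h. Their median was 0.35 within KO and -0.91 within WT, a difference that was not tested. Endothelial markers had a median of 0.16, bile duct markers of 0.16, stellate and fibroblast markers of -0.28, red blood cell markers of -0.47 and hepatocyte markers of -0.046 (0.032 without scaling factors). Only 4 adipocyte, 2 adrenal and 1 pancreas marker passed the filter on low counts, with medians of 0.061, 0.74 and -0.58. The part of these cell types in the changes above was not tested.

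The 8 libraries of 20 h did not overlap the 8 of 16 h for 16 of 13121 genes (0.122%), 10 above and 6 below. These genes were picked for their values, so they are a description. Above were Gm9625, Gm8730, Eme2, Tubb2a, Zfp143, Pebp1, Zfp956, Ccnj, 1110021L09Rik and Rraga, and below were Per3, Cyp2a5, Acat2, Tmem50a, Slc46a3 and Auh. Eme2, a subunit of a DNA endonuclease, had 10.3 to 17.6 CPM at 20 h and 5.57 to 9.61 CPM at 16 h (0.88, SE 0.15, adjusted p = 0.0527). Zfp143, a zinc finger activator of transcription, had 8.12 to 15.9 CPM at 20 h and 5.39 to 7.56 CPM at 16 h (0.82, SE 0.16, adjusted p = 0.0664). Pebp1, an inhibitor of RAF kinase, had 187.5 to 265.7 CPM at 20 h and 89.0 to 169 CPM at 16 h (0.74, SE 0.15, adjusted p = 0.0743). Over 48 libraries Pebp1 was not called, and with Gm8730 as covariate there its log2 change was -0.081 (SE 0.18). Auh, an enzyme of leucine breakdown, left only a small gap, with 28.7 to 38.7 CPM at 20 h and 39.0 to 53.8 CPM at 16 h.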

How the data were processed

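Poly-A RNA of liver was sequenced from 48 mice, per the labels' protocols with a TruSeq version 2 kit, which does not keep strand. The authors deposited 1 table of whole-number counts for 22354 genes. Its name includes the word sense, and how strand was assigned is not stated. Totals without Alb lay between 12841969 and 13009797 in all 48 libraries. Alb had the same value, 1402115, in KO replicate 3 and WT replicate 4 of 16 h. It also had the same value, 1051914, in KO replicate 3 of 0 h and KO replicate 2 of 8 h. Whether Alb or the other counts were rescaled or brought to equal depth before deposit is not stated. The submitters' processing notes name CASAVA, the aligner STAR 2.4.1d and mm9, without a counting rule or an annotation. Alb, which the table marks as highly expressed, was left out. Groups came from the labels' genotype and collection time.

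The counts of 16 libraries were filtered with filterByExpr over the 4 groups (minimum count 10, minimum total 15), which left 13121 genes and removed 9232, scaled by TMM and tested with edgeR 4.0.16 in R 4.3.3 (quasi-likelihood F tests, Benjamini-Hochberg adjustment, threshold 0.05). Genotype was an additive covariate. A model of 4 group means gave the steps within KO and WT and their difference, and a model of 12 group means over 48 libraries gave the difference from the 4 to 8 h step. The SE is the size of a log2 change divided by the square root of F. The scripts were tested on simulated data. Precision is limited by the 3 to 5 mice in a group.

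Named genes were the largest calls with a mean of at least 5 CPM in each direction, all tested clock members, up to 4 called or else 2 lowest-p members of each other list, the 5 lowest p of the step difference, and Arntl; some of the genes so chosen are not reported here. Gm8730, Gm9625, Rplp0, Cyp2a4, the genes without overlap and the genes called in 4 alternative fits were named after their values were seen. The comparison, the members and the lists were chosen with earlier results of these data known. The protocols in the labels describe 1 mouse a library. No 2 libraries of a group agreed within sampling noise. Alternatives were RLE scaling and no scaling factors, other filters, DESeq2 1.42.0, sva 3.50.0, other models, and leaving out libraries. Promoter and transcript sequences came from RefSeq (GRCm38.p6) and GENCODE M21, whose coordinates were not mixed with mm9.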

Additional observations from a re-analysis of the deposited data

Results flagged for a closer look

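Each of 111 genes was checked within the 20 h KO, 20 h WT and 16 h WT groups for a library far from the rest of its group. Of 333 such groups 21 held one, or 6.31%, where the threshold used lets about 1 in 20 through by chance. Genes measured in the same libraries are not independent, so the 2 shares are not compared by a test. The 3 KO libraries of 16 h are too few for this check. No explanation was tested for these values.

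WT replicate 2 of 16 h, one of the 4 libraries set apart by the first principal component, accounted for 8 of them. It was highest in its group for Arntl (21.6 CPM against 13.5 to 15.2 CPM in the other 4) and Clock (103 CPM against 28.3 to 40.3). It was lowest for Per1 (26.2 CPM against 69.0 to 83.6), Cry2 (28.6 against 61.3 to 71.1), Bhlhe40 (38.5 against 116 to 166), the casein kinase gene Csnk1d (36.7 against 86.4 to 92.0), Hand2 (4.16 against 9.96 to 12.7) and Leo1 (6.71 against 14.2 to 16.6). WT replicate 5 of 16 h was lowest for Cry1 (33.4 CPM against 46.2 to 52.0).

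At 20 h, WT replicate 2 was highest for Nr1d2 (80.4 CPM against 28.9 to 34.2) and the cold-inducible gene Rbm3 (87.5 against 35.6 to 39.7). WT replicate 4 was highest for the globin genes Hbb-b1 (134 CPM against 40.8 to 45.7) and Hbb-b2 (23.2 against 6.18 to 7.27). KO replicate 1 was lowest for Thrsp (35.8 CPM against 97.3 to 113), Serpina6 (92.3 against 292 to 348) and Rpl3 (285 against 307 to 312), and highest for Socs3 (19.5 against 9.52 to 9.80). KO replicate 2 was highest for Acat2 (54.0 CPM against 42.5 to 43.4). KO replicate 3 was lowest for Actg1 (20.04 CPM against 69.3 to 80.9) and highest for Cry1 (63.9 against 41.6 to 43.3) and Rraga (48.8 against 41.7 to 42.4).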

How the results depend on the processing

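The 5 calls of 20 h against 16 h became 13 without scaling factors, 12 without the genotype term and 14 without the 4 libraries set apart by the first principal component. They became 50 with 1 surrogate variable, 50 over 48 libraries, 0 with Gm8730 as covariate there, and 55 with DESeq2. Leaving out each library gave 4 to 10. RLE scaling, both other filters, the Alb row kept and the 3 libraries that stood apart left out gave 5 to 7. In KO the 3 calls became 0 over 48 libraries (edgeR; 1146 at an unadjusted p under 0.05) and 6 with DESeq2, and 2 to 3 with a library left out. In WT the 3 became 9 over 48 libraries and 23 with DESeq2, and 2 to 7 with a library left out. The genotype difference had 0 calls in each fit run for it, 0 to 0 with a library left out; it was not fitted with a surrogate variable, with Alb kept, without the genotype term or with Gm8730 as covariate. The 154 calls of 8 h against 4 h became 470 with DESeq2, and the 384 of the step difference stayed between 372 and 499.

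Over 2000 genes, the deviations of same-numbered libraries of 20 h and 16 h correlated above 0.1 in 4 of 7 pairs (-0.383 to 0.75). Libraries of different numbers were not compared, so whether replicate numbers pair the libraries was not tested. With a replicate block there were 5 calls for the step, 2 in KO, 3 in WT, 0 for the genotype difference, 175 for 8 h against 4 h and 372 for the step difference.

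Scaling moved the median of all genes by less than 0.1: it was -0.022 with RLE and 0.065 without factors. Among gene values under alternatives, 3284 kept their direction and side of the threshold. A further 83 passed where the reported value did not, 27 no longer passed and 46 changed sign. Values in brackets below are those after the sign turned. Within KO the sign turned for Alas1 (0.76), Avpr1a (-0.0019), Clock (-0.050), Cry1 (-0.21), Csnk1e (0.032), Ighg1 (0.44), Kdr (-0.013), Lpl (-0.52), Nr1d1 (0.012) and Tfrc (-0.28). Within WT it turned for Csnk1d (-0.083), Elovl3 (-0.20), Nop56 (-0.085), Plin4 (-0.58), Psmc4 (-0.049), Rora (0.12) and Star (-0.13). With Gm8730 as covariate it turned for Avpr1a (-0.0028), Cry1 (-0.075), Csnk1d (-0.17), Cyp21a1 (-0.47), Gm9625 (-0.052), Nfil3 (-0.23), Pebp1 (-0.081), Plin4 (-0.37) and Rora (0.040). Among these, Gm9625 had a reported log2 change of 3.93 and Pebp1 one of 0.74, so their changes were lost in that fit. Without the 4 libraries set apart by the first principal component it turned for Cry1 (-0.018), Csnk1d (-0.050) and Plin4 (-0.22). Without the genotype term it turned for Plin4 (-0.041). With a library left out, values ran from -0.054 to 0.42 for Lpl, -0.019 to 0.41 for Clock, -0.0034 to 0.14 for Cry1, -0.024 to 0.26 for Nfil3, -0.25 to 0.021 for Csnk1e, -0.19 to 0.22 for Plin4 and -0.11 to 0.20 for Csnk1d. The causes were not tested.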
